A study of Mus musculus with 6 samples.

Results

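Bhlhb9, also called Gprasp3, and 6 related genes, Gprasp1, Gprasp2, Armcx1, Armcx2, Armcx3 and Armcx6, were followed in long-term haematopoietic stem cells (LT-HSC) of the mouse. The family was taken up because Bhlhb9 stood among the rises of smallest p after sex steroid ablation, and its relatives were added by name. The signal table lists them in capitals, as BHLHB9, GPRASP1, GPRASP2, ARMCX1, ARMCX2, ARMCX3 and ARMCX6, with 1 row for each of the 7 members out of 28888 genes. LT-HSC were sorted from bone marrow of male C56 Bl/6 mice aged 2 months, 2 days after surgical sex steroid ablation (SSA, 3 arrays) or after a sham operation with no ablation (3 arrays). RNA was labelled with biotin and read on Illumina MouseWG-6 arrays. The labels do not say whether the arrays came from separate or pooled animals, so errors measure the spread between arrays, which may be technical.

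Gprasp1 is a G protein-coupled receptor-associated sorting protein: it binds the tails of internalised receptors and directs them to lysosomes. Gprasp2 and Bhlhb9 are its closest relatives, and the Armcx proteins share with them a carboxy-terminal block of armadillo-like repeats. Several Armcx proteins lie on the outer mitochondrial membrane, where Armcx3 works with the Miro and Trak adaptors that move mitochondria in neurons. Armc10 is the autosomal relative from which the X-linked genes are thought to descend. In mouse HSC, loss of Gprasp2 or of Armcx1 has been linked to better repopulation after transplantation.

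All 7 members lie on the X chromosome, in a stretch that also holds the Bex and Tceal genes. In the RefSeq annotation (GRCm38.p6), Bhlhb9 overlaps Gprasp2, Armcx3 overlaps Armcx6, and Gprasp1 shares its annotated start with Armcx5. RefSeq's promoter table held 9 of the 10 family genes when Armcx4, Armcx5 and Armc10 are counted in, and gave no entry for Armcx3. The 250 bases before the start of Bhlhb9 and of Gprasp2 are shown because these neighbours carry almost the same promoter. Capitals mark their longest shared run, of 60 bases.
Bhlhb9, chrX:135885601-135885850, plus strand: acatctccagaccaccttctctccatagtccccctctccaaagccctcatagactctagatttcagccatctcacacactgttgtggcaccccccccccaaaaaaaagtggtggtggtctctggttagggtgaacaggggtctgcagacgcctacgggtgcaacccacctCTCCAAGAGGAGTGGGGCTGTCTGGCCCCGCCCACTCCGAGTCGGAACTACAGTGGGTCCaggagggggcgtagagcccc
Gprasp2, chrX:135838784-135839033, plus strand: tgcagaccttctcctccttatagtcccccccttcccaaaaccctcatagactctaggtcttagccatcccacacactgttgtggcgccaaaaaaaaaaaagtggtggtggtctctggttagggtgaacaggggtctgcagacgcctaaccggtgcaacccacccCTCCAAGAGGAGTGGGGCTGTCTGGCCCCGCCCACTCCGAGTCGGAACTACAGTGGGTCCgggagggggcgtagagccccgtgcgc

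Across a global alignment, 84.9% of the columns of these windows were identical. For pairs outside the 3 described here, identity lay between 41.5% and 48.3%, which shows the level that such alignments give to windows with little in common. The shared run ended 20 bases before the start of Bhlhb9 and 26 bases before that of Gprasp2. No other window among 32815 in the table held any stretch of 20 bases of it, on either strand.

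A second window is shown because Gprasp1 and Armcx5 share it entirely: the table gives both genes the same start, so the letters below stand for both.
Gprasp1 and Armcx5, chrX:135742442-135742691, plus strand: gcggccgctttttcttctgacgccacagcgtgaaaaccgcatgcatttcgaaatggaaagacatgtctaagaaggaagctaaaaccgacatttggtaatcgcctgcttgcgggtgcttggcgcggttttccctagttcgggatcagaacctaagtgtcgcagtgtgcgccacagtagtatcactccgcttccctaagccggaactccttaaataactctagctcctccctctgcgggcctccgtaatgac

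Armcx1 and Armcx6 formed another pair, with 53.0% identity and a shared run of 12 bases close to the start. Their last 60 bases before the start are shown with that run in capitals.
Armcx1, chrX:134717878-134717937, plus strand: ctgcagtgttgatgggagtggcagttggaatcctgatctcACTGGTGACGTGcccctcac
Armcx6, chrX:134751420-134751479, minus strand: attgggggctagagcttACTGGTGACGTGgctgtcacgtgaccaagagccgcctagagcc
The run holds TGACGT, which occurred on either strand in 6.46% of the 32817 windows of this length and, in the family, in the windows of these 2 genes. The whole run of 12 bases occurred in 2 windows of the table, those of Armcx1 and Armcx6. It was picked because both genes hold it, and a match describes letters and not a binding site.

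**Figure D1:**
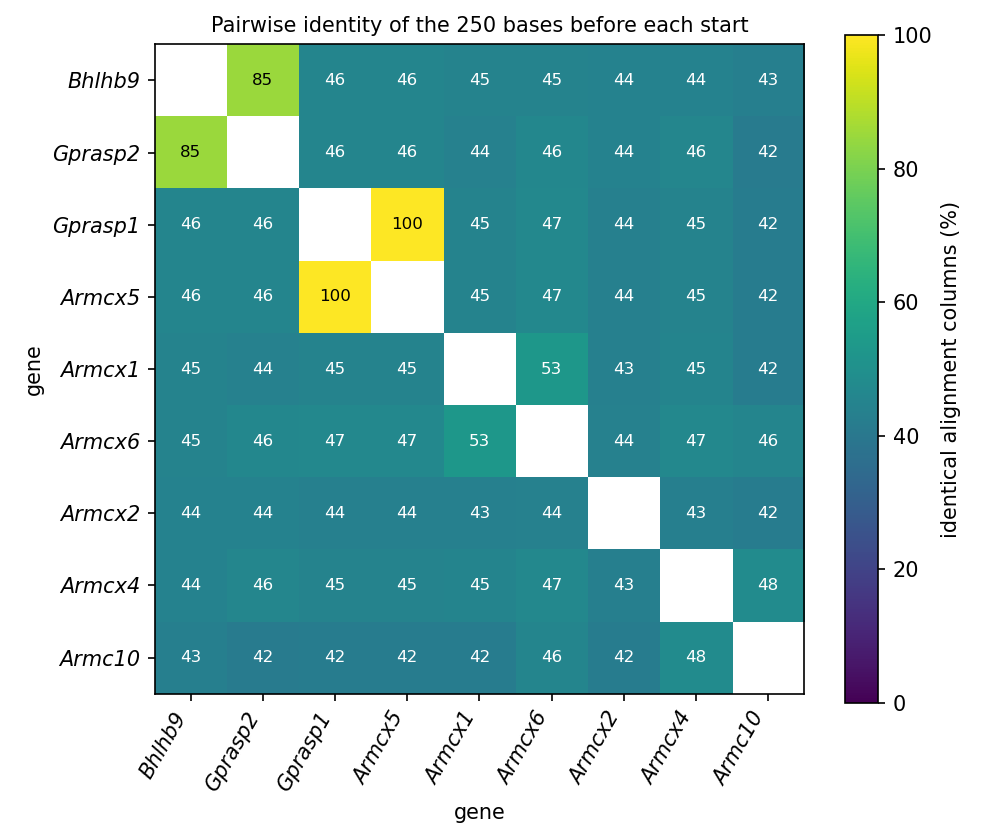
Pairwise identity of the 250 bases before the start of 9 family genes, as the percentage of identical columns in a global alignment (colour scale and printed values, rounded to whole percent). Bhlhb9 with Gprasp2 (84.9%) and Gprasp1 with Armcx5 (the same window) stand out, followed by Armcx1 with Armcx6 (53.0%).

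The arrays differed in overall brightness before normalisation. The median background-subtracted signal of the detected genes was 154.7, 186.7 and 155.2 for the SSA arrays. For the sham arrays it was 177.9, 139.4 and 224.1, which made sham 2 the dimmest array and sham 3 the brightest. Of 10 LT-HSC markers, among them Kit, Ly6a, Slamf1, Mecom, Hlf, Hoxb5, Fgd5, Meis1 and Procr, 9 were detected on at least 3 arrays, and Procr was detected on none. Of the stroma and endothelium markers 6 of 9 were detected on no array, as were 4 of 5 macrophage markers, 5 of 6 T and NK cell markers and 3 of the 5 B cell markers in the table. The remaining T and NK cell marker, Nkg7, was detected on all 6 arrays. Its background-subtracted signal was 1759 to 2077 in SSA and 2154 to 4065 in sham. Relative to each gene's mean over the 6 arrays, the median of the LT-HSC markers was 0.053, 0.014 and 0.009 (log2) in SSA and 0.13, -0.076 and -0.15 in sham. With the background taken from the curve of detection score against signal (the detection-curve setting), which compresses dim genes less, it was 0.24, 0.10 and 0.089 in SSA and 0.18, -0.39 and -0.38 in sham, so sham 2 was then the lowest array. The median of the 6 detected erythroid markers was highest in sham 2, at 0.47 (1.10 in the detection-curve setting), and lowest in SSA 1, at -0.98 (-0.89). That of the 5 megakaryocyte markers was also highest in sham 2, at 0.45 (0.70 in the detection-curve setting). Neutrophil and monocyte markers were highest in sham 1, their median being 0.82 there (2.02 in the detection-curve setting), and lowest in SSA 1, at -0.47 (-2.19). The summed background-subtracted signal of the 4 eosinophil markers was 372 to 1206 on the SSA arrays and 2249 to 4429 on the sham arrays, with no overlap. In sorted bulk cells, fewer cells of a type and less RNA per cell cannot be told apart. The part of these differences in the results below was not tested.

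Bhlhb9, named for a predicted basic helix-loop-helix domain, was bright and detected on all 6 arrays. Its background-subtracted signal was 1663.4, 2061.8 and 1655.9 in SSA and 1561.2, 1157.4 and 1795.5 in sham, that is 1794 ± 232 against 1505 ± 323 (mean ± SD, n = 3). At this stage the groups overlapped, since sham 3 lay above SSA 1 and SSA 3. None of the 7 members had separate groups before normalisation, where 2.58% of all detected genes had every SSA array above every sham array. After normalisation to a common distribution the log2 signal was 10.63, 10.66 and 10.59 in SSA and 10.32, 10.08 and 10.16 in sham. Every SSA array then lay above every sham array, and the SSA arrays lay closer to each other than the sham arrays did. Quantile normalisation keeps the order of genes within an array, so this separation rests on the rank of Bhlhb9 within each array. The standard error over beads was 1.97% to 3.72% of the raw signal on single arrays, from 36 to 47 beads, which is of the order of the spread among the SSA arrays.

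The log2 fold change of Bhlhb9, SSA minus sham, was 0.44 ± 0.067 (SE, n = 3 arrays per group), a 1.36-fold higher signal. This is the value that chose the family, and it is given as a description. By p it was the 8th of 4235 rises with a gene symbol, between Gde1 at 0.28 ± 0.041 and Tsen15 at 0.19 ± 0.028. In the detection-curve setting the difference was 0.36 ± 0.13 and its place among the rises was 211th. The difference lay between 0.32 and 0.51 in the 25 other settings, while its place among the rises varied widely. That place ran from 4th with array weights to 527th in the detection-curve setting without SSA 2. Most of these settings could not have turned its direction. Leaving out 1 array cannot do so for a gene with separate groups. Settings that change only the filter, the row choice, the test or the replicate block leave the value of Bhlhb9 as it is. Of all 10821 genes detected on at least 3 arrays, 1.94% had a log2 fold change at least as high as that of Bhlhb9.

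All 7 members were detected on all 6 arrays, and 6 of 7 stood above 0, the median of their log2 fold changes being 0.21. Over all detected genes 50.8% stood above 0 and the median was 0.0008. In the detection-curve setting 5 of 7 stood above 0, against 51.4% of all genes, because Armcx6 lay at 0. No member and no other gene passed limma at an adjusted p of 0.05 (0% of 10821 genes). At an unadjusted p under 0.05 stood 852 genes, or 782 in an unmoderated test. That is 7.87% of the genes, 4.81% higher and 3.07% lower after SSA, and of the members it was Bhlhb9, the gene that led to the choice. Of these 852 genes 61.0% were higher after SSA; with each array shifted to a common median in place of quantile normalisation, 34.7% of such genes were. Adjusted p values of the 6 members other than Bhlhb9 ran from 0.623 to 0.987 in limma. The groups were separate, with SSA above sham, for Bhlhb9 and Armcx3, that is 2 of 7 members against 8.47% of all genes. The detection-curve setting leaves this order as it is. As the members come from a family chosen on this contrast, these counts describe it and do not test it. With 3 arrays against 3, an exact two-sided permutation test of 1 gene cannot give a p below 0.1.

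**Figure D2:**
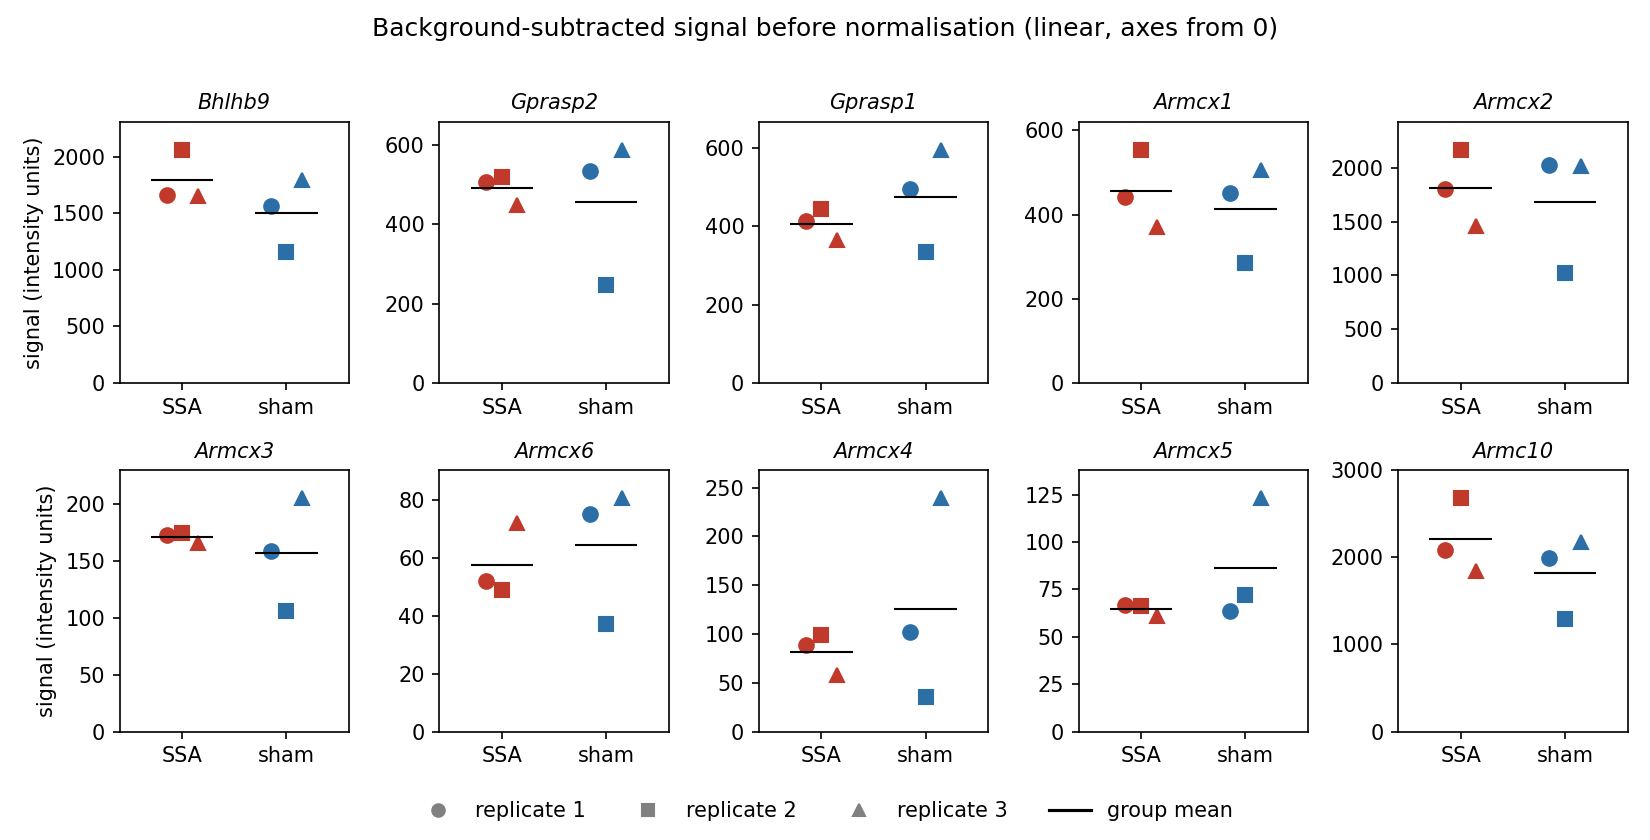
Background-subtracted signal on each array, in linear intensity units with axes from 0, for the 7 members and for Armcx4, Armcx5 and Armc10. Points are arrays, with shape giving the replicate number, and lines are group means; the groups overlap in all panels, and sham 2 (blue squares) is the lowest array for every member.

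Among the sorting proteins, Gprasp2 had a background-subtracted signal of 505.9, 518.4 and 448.4 in SSA and 533.4, 247.8 and 587.4 in sham. Only sham 2 stood apart, and the other sham arrays were brighter than every SSA array before normalisation. The normalised log2 signal was 8.45, 8.20 and 8.29 in SSA and 8.35, 7.74 and 8.14 in sham, with a log2 fold change of 0.24 ± 0.17. Without sham 2 it was 0.069, and without sham 1 it was 0.37. Gprasp2 carried nearly the same promoter letters as Bhlhb9. Its groups overlapped, but the log2 ratio of Bhlhb9 to Gprasp2 differed by 0.07 between SSA and sham, also with overlap. A different change of these genes is thus not shown, and a part of the promoter was not tested.

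Gprasp1, the founding member, went the other way by a small amount. Its background-subtracted signal was 413.0, 443.4 and 364.8 in SSA and 496.2, 333.8 and 596.0 in sham, and on the normalised scale 8.16, 8.03 and 8.03 against 8.25, 8.0 and 8.16. The log2 fold change was -0.065 ± 0.076, smaller than its error, and it lay between -0.15 and -0.010 in the 25 other settings. Armcx5, which has the same start, stood at -0.029 ± 0.027, with normalised values of 7.20, 7.17 and 7.19 in SSA and 7.17, 7.24 and 7.24 in sham. Its signal was dim, at 66.8, 66.2 and 60.8 in SSA and 63.8, 71.8 and 123.1 in sham before normalisation, and in the detection-curve setting the difference was -0.20 ± 0.19. Both genes that share this start lay slightly below 0, with overlapping groups, where 50.8% of all detected genes stood above 0. A part of the shared start was not tested.

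Of the mitochondrial Armcx genes, Armcx1, which promotes mitochondrial transport in mouse axons, had a background-subtracted signal of 441.8, 554.1 and 371.6 in SSA and 450.3, 284.3 and 506.7 in sham. After normalisation the log2 signal was 8.25, 8.29 and 8.05 in SSA and 8.12, 7.85 and 7.97 in sham. SSA 3 lay below sham 1, so the groups overlapped by 1 array on each side. The log2 fold change was 0.21 ± 0.097, and 0.15 without sham 2.

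Armcx2, a close relative of Armcx1, was bright, with 1805.6, 2167.6 and 1463.0 in SSA and 2026.8, 1018.0 and 2014.2 in sham. Normalised values were 10.77, 10.73 and 10.38 in SSA and 10.77, 9.89 and 10.36 in sham, so sham 1 was as high as the highest SSA array. Its log2 fold change was 0.29 ± 0.26, with values of 0.058 without sham 2 and 0.50 without sham 1. The size of the Armcx2 difference thus depended on which sham arrays were used.

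Armcx3, the Miro and Trak partner, had a background-subtracted signal of 172.5, 174.7 and 165.3 in SSA and 158.9, 105.8 and 204.9 in sham. On the normalised scale the SSA arrays, at 7.46, 7.39 and 7.45, lay above the sham arrays, at 7.38, 7.33 and 7.38, narrowly for SSA 2. The log2 fold change was 0.074 ± 0.029. The standard normalisation compresses dim genes, and in the detection-curve setting the difference was 0.26 ± 0.15. Armcx6, whose mitochondrial role is less studied, was the dimmest member, at 51.9, 48.9 and 72.0 in SSA and 74.9, 37.2 and 80.5 in sham. Its log2 fold change was 0.002 ± 0.027 and changed sign between settings, from -0.19 to 0.16. Normalised values of Armcx6 were 7.16, 7.14 and 7.22 in SSA and 7.19, 7.15 and 7.18 in sham, and the groups overlapped.

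**Figure D3:**
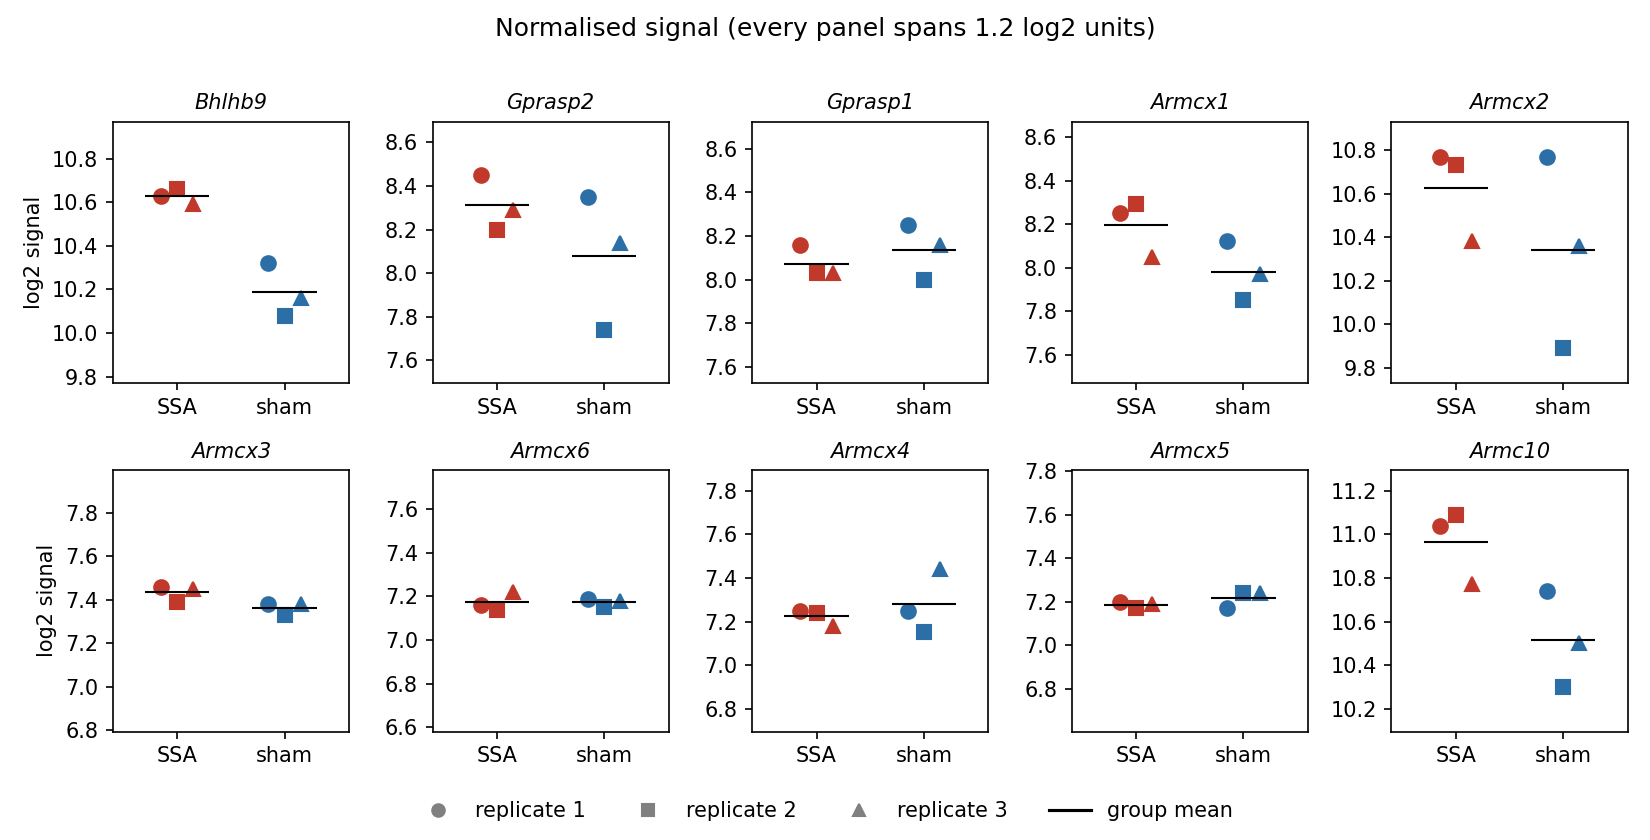
Normalised log2 signal on each array for the same 10 genes, with every panel spanning the same range of log2 units. Points are arrays and lines are group means. SSA lies wholly above sham for Bhlhb9, Armcx3 and Armc10, as for 8.47% of all detected genes. Sham 2 (blue squares) is the lowest array in every panel except those of Armcx6 and Armcx5.

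One array recurred in these values. Sham 2 was the lowest of the 6 arrays for all 7 members before normalisation, as it was for 44.8% of all detected genes, and for 6 of 7 after it, as for 26.8% of all detected genes. The members' median, relative to each gene's own mean, was 0.16, 0.005 and 0.045 in SSA and 0.030, -0.23 and -0.052 in sham. Sham 1 thus lay above SSA 2, and sham 2 lay farthest from the other arrays. In the same array the LT-HSC markers had a median of -0.076 and the erythroid markers one of 0.47, or -0.39 and 1.10 in the detection-curve setting. The megakaryocyte markers had a median of 0.45 there, or 0.70 in the detection-curve setting. A low LT-HSC median was not particular to sham 2, since in sham 3 it was -0.15, or -0.38 in the detection-curve setting. Single LT-HSC markers also differed in direction. In sham 2 the normalised signal of Kit, at 11.08, lay above every SSA array, and that of Ly6a, at 9.79, below every SSA array.

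The 3 relatives outside the member list were measured too. Armc10, the autosomal relative, resembled Bhlhb9: its background-subtracted signal was 2087.1, 2680.2 and 1849.0 in SSA and 1987.7, 1287.9 and 2177.4 in sham. After normalisation it stood at 11.04, 11.09 and 10.77 in SSA and 10.74, 10.30 and 10.50 in sham. The groups, which overlapped before normalisation, were then separate, as for 8.47% of all detected genes, and narrowly so between SSA 3 and sham 1. The log2 fold change was 0.45 ± 0.15, with a limma adjusted p of 0.581, and 0.35 without sham 2. Armcx4 stood at -0.057 ± 0.082, with sham 3 the highest array at 7.44 and the others between 7.15 and 7.25. In the detection-curve setting it was -0.18 ± 0.38. The direction depended on single sham arrays: without sham 3 the value was 0.025, or 0.23 in the detection-curve setting, and without sham 2 it was -0.12, or -0.59.

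**Figure D4:**
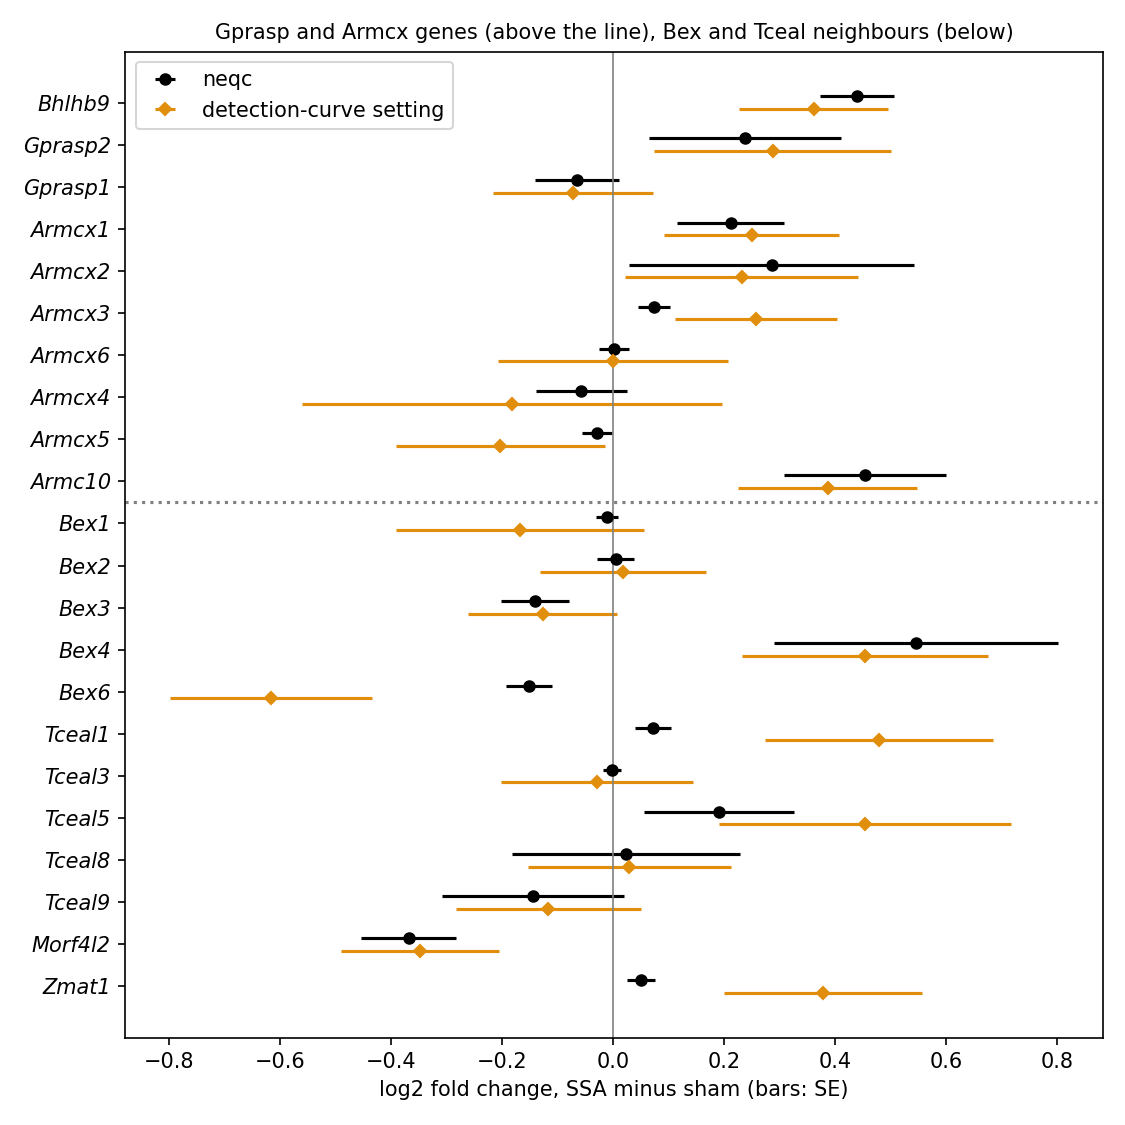
Difference between SSA and sham in log2 units (SSA minus sham; bars are standard errors) for the 10 Gprasp and Armcx genes and for 12 Bex and Tceal neighbours, after the standard normalisation (black circles) and in the detection-curve setting (orange diamonds). Bhlhb9 (0.44 and 0.36) and Armc10 (0.45 and 0.39) lie to the right of 0 in both, Gprasp1 (-0.065 and -0.072) lies near 0, and dim genes such as Tceal1 spread out in the detection-curve setting.

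Ratios between genes of the same array do not depend on how arrays are scaled to each other. They were taken on the background-subtracted signal for the 7 brighter genes of the family, Armc10 included, which gave 21 pairs. The log2 ratio of Bhlhb9 to Gprasp1 was 2.01, 2.22 and 2.18 in SSA and 1.65, 1.79 and 1.59 in sham, a difference of 0.46 between means of 2.14 ± 0.11 and 1.68 ± 0.10 (SD, n = 3). Each SSA array lay above each sham array. Bhlhb9 was chosen for its rise on these same arrays, so this ratio describes that rise again and does not test it. Of all other detected genes with a signal above 0 on every array, 14.2% also had a ratio to Gprasp1 that was higher on every SSA array.

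Among the brighter genes compared in pairs, the pairs with Gprasp1 differed most between SSA and sham. The 6 pairs that hold it differed by 0.34 to 0.49 in size, with Gprasp1 relatively lower after SSA in each, and 5 of them had separate groups. It was singled out after these values were seen. Gprasp2 over Gprasp1, for example, was 0.29, 0.23 and 0.30 in SSA and 0.10, -0.43 and -0.02 in sham. Armc10 over Gprasp1 was 2.34, 2.60 and 2.34 in SSA and 2.0, 1.95 and 1.87 in sham, a wider gap than for Bhlhb9. Of the 15 pairs without Gprasp1, 1 had separate groups, Armc10 over Armcx1, and differences ran from -0.05 to 0.14. The ratio of Bhlhb9 to Gprasp2 was 1.72, 1.99 and 1.88 in SSA and 1.55, 2.22 and 1.61 in sham, and that of Bhlhb9 to Armc10 differed by -0.03. A difference in such a ratio describes how its genes stood to each other on these arrays and does not say which of them changed. The pairs share genes and arrays, so their counts are not independent, and no test was made of them. The dimmer genes Armcx4, Armcx5 and Armcx6 were left out of the pairs. Their mean background-subtracted signals were also lower in SSA, at 81.7 against 125.7, 64.6 against 86.2 and 57.6 against 64.2 in sham. Those of Gprasp1 were 407.1 and 475.3, so a lower mean before normalisation was not particular to Gprasp1 in the family. These means carry the unequal brightness of the arrays. Sham 3, the brightest array, held the highest value of Armcx4, Armcx5 and Armcx6, at 239.3, 123.1 and 80.5. After normalisation their log2 fold changes were -0.057, -0.029 and 0.002. The detection score of Gprasp1 was also lower than that of the other members, at 0.969 to 0.992 against 1 in each other member, although its signal was well above background.

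**Figure D5:**
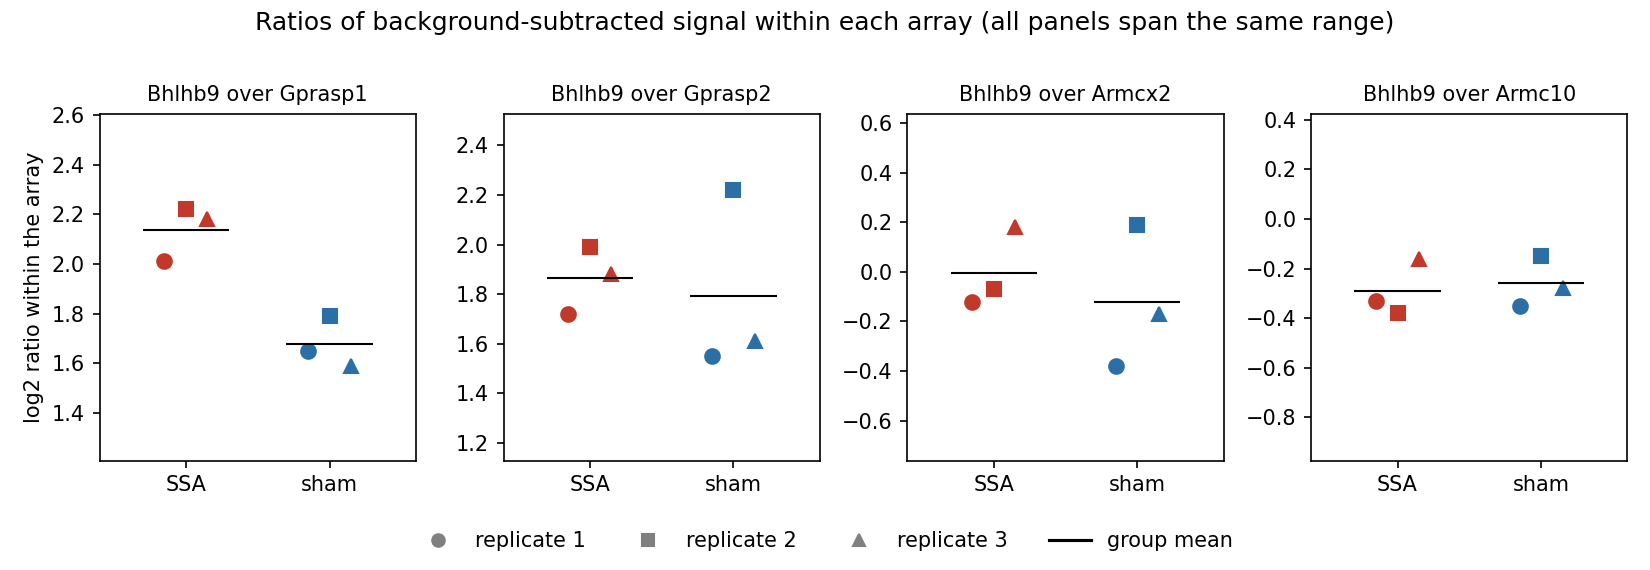
Log2 ratio of the background-subtracted signal of Bhlhb9 to that of Gprasp1, Gprasp2, Armcx2 and Armc10 within each array. Points are arrays, lines are group means and all panels span the same range; the SSA arrays lie above the sham arrays for Gprasp1 (2.01 to 2.22 against 1.59 to 1.79) and overlap them in the other panels.

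The genes whose array pattern was most like that of Bhlhb9 came from outside the family. Likeness was the mean absolute difference between log2 values, each centred on the gene's mean over the 6 arrays. Among the 5 closest were Ccdc90b at 0.027, the ribosomal protein gene Rpl36a at 0.032, Grina at 0.038 and Cibar1 at 0.049, where Bhlhb9 itself deviated from its mean by 0.22. Within the family Armc10 came 54th of 8467 named genes, at 0.088, Armcx1 192nd, at 0.11, and Gprasp1 6110th, at 0.25. Armcx3 came 1214th, and 97th in the detection-curve setting, where dim genes are less compressed; Gprasp1 came 3573rd there. In the detection-curve setting 3 of the 5 closest genes were the same, Rpl36a and Cibar1 among them.

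The Bex and Tceal genes, small X-linked genes of which several modulate signalling or transcription, lie in the same stretch of the X chromosome, apart from Bex6 on another chromosome. Of 14 listed with Morf4l2 and Zmat1, 12 were detected on at least 3 arrays, and Tceal6 and Tceal7 were detected on none. After SSA 6 of 12 stood above 0, with a median of 0.002 and a range from -0.37 to 0.55, and none passed limma, at adjusted p from 0.53 to 0.985. The smallest p belonged to Morf4l2, a chromatin complex subunit gene, at -0.37 ± 0.085, to Bex6 at -0.15 ± 0.042 and to Bex3 at -0.14 ± 0.061. For Morf4l2 and Bex6 every SSA array lay below every sham array, as for 6.09% of all detected genes. For Tceal1 every SSA array lay above every sham array, as for 8.47% of all detected genes. Its log2 fold change was 0.072 ± 0.032, or 0.48 in the detection-curve setting. Bex6 stood at -0.62 in the detection-curve setting. The neighbourhood as a whole therefore had no common direction.

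Genes of the processes in which the family acts also did not pass the test. Of 22 genes of receptor sorting to lysosomes 20 were detected, 9 stood above 0 and the median was -0.009. Those of smallest p were Dtnbp1, which encodes the Gprasp1-binding protein dysbindin, at 0.15 ± 0.074, the sorting nexin gene Snx2 at -0.22 ± 0.12 and the membrane scission gene Chmp4b at -0.36 ± 0.21. In limma their adjusted p values were 0.647, 0.679 and 0.691. Of 15 G protein-coupled receptors known in HSC 8 were detected on at least 3 arrays, and 4 of them stood above 0. The orphan receptor gene Gpr171 had normalised values of 10.56, 9.97 and 10.24 in SSA and 9.90, 8.89 and 9.31 in sham. Its groups were separate, with SSA above sham as for 8.47% of all detected genes, and the log2 fold change was 0.89 ± 0.30. Lpar6, a lysophosphatidic acid receptor gene, stood at 0.78 ± 0.28, and its groups overlapped narrowly, with SSA 2 at 10.74 and sham 1 at 10.76. In the background-subtracted signal every SSA array lay above every sham array for Gpr171 and for Lpar6, as for 2.58% of all detected genes. Cxcr4, which holds stem cells in the niche, stood at -0.025 ± 0.046, or -0.080 in the detection-curve setting. None of the 8 receptors passed limma, at adjusted p from 0.604 to 0.994.

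Genes of mitochondrial transport and dynamics, the process of the Armcx proteins, were close to 0. Of 16 listed 11 were detected on at least 3 arrays and 3 stood above 0, with a median of -0.018. The adaptor gene Trak2 had the smallest p, at -0.23 ± 0.095, or -0.36 in the detection-curve setting, followed by the fission gene Dnm1l at -0.16 ± 0.11. Rhot1, which encodes Miro1, stood at -0.11 ± 0.11. Adjusted p values of the 11 ran from 0.629 to 0.974 in limma. The fusion gene Mfn2, with a raw signal of 761.6 to 1229, was among the 5 left out by its detection score; with a filter on raw signal instead, 13 of 16 were kept, 4 stood above 0 and Mfn2 stood at 0.049.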

How the data were processed

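The authors deposited linear intensity values per gene name and array, with bead standard deviation, bead number and a detection score, taken here as 1 minus a detection p, from GenomeStudio 1.8.0 with no normalization and no background correction, per the file headers. Whether the table merged several probes before deposit, or which transcript a probe reads, is not given in the sources used here. The series matrix, deposited as intensity, was found to be the raw signal less a single number for each array (126.6 to 138.1, within 0.1) and supplied the background-subtracted signals. On each array 35.8% to 37.7% of 30774 rows were detected (detection p under 0.05). The score did not follow signal in every row: of 5341 rows over 2 times the array median on all arrays, 5.9% were detected on fewer than 3, so "detected" means by this score. No array pair was identical. The number of arrays limits the precision.

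Row names were matched to symbols through RefSeq's gene table (GRCm38.p6): 15991 current, 5826 older, 119 with several and 8838 with none. Intensities were corrected and quantile-normalised with neqc (offset 16, log2) in limma 3.58.1, R 4.3.3. Rows detected on at least 3 of 6 arrays were kept, the brightest row per gene, leaving 10821 genes. SSA was compared with sham by lmFit and eBayes, two-sided, with Benjamini-Hochberg adjustment over all genes. The script was tested on simulated data.

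neqc estimated a background SD of 194.9 to 302.7, whereas the curve of detection score against signal gave 7.54 to 8.99. The detection-curve setting uses the latter, given in the text for named genes where the difference is over 1.5 times larger or smaller. Alternatives were the background, offset, normalization, filter, row choice, array weights, an unmoderated test, a replicate block and each array left out. All members and relatives were named, with the 3 genes of smallest p per list, Cxcr4, Rhot1 and Trak2, and the 5 genes most like Bhlhb9, except for genes that are not reported here. Members and lists were chosen with earlier results of these data known. The column headers number all SSA arrays before all sham arrays. If that order reflects batches, they cannot be told apart from SSA. Promoter windows come from RefSeq and were aligned with Biopython 1.88.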

Additional observations from a re-analysis of the deposited data

How the results depend on the processing

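The number of members above 0 was 6 in the main setting and 5 or 6 in the 25 other settings. At an adjusted p of 0.05, limma called 0 genes in the main setting, 1 in the detection-curve setting, 1 with normexp by maximum likelihood and 1 with array weights. Leaving out 1 array in turn called 0 genes, and 0 to 4 in the detection-curve setting, a combination added after the data were seen. None of the calls was a family gene: over all settings the lowest adjusted p was 0.0575 for Bhlhb9 and 0.0725 for Armc10. At an unadjusted p under 0.05, 852 genes passed, against 452 with a median shift per array, 1827 with no filter on dim rows and 3054 with array weights. Leaving out 1 array gave 483 (without SSA 1) to 1520 (without sham 1), with 534 without sham 3; in the detection-curve setting it gave 462 (without SSA 1) to 1798 (without sham 1), with 484 without sham 3. The cause of these shifts was not tested. With a median shift, 34.7% of the genes at an unadjusted p under 0.05 were higher, against 61.0%. The replicate block gave 887 such genes and 0 called. In this balanced design the block cannot change a difference, so that of Bhlhb9 stayed at 0.44. The gene's place among the rises was 74th. Same-numbered arrays had correlations of 0.504, -0.064 and -0.291. The labels do not say whether such arrays were paired, and so few correlations cannot settle it. Armcx3, Armcx4 and Armcx5, near background, each moved by more than their spread in 9 of 25 settings, Armcx6 in 4 of 25 and Bhlhb9 in 2 of 25, both in the detection-curve setting (0.35 without SSA 2 and 0.32 without sham 2).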
